A study of Mus musculus with 18 samples.

Results

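Developmental transcription factor genes on chromosomes other than those of the captured promoters were examined as trans partners of *Eomes*, *Foxa2* and *Lhx1*. The list held 54 genes of the Pax, Nkx, Fox, LIM-homeobox, T-box, Iroquois, sine oculis (*Six3* and relatives), Gata, Sox, basic helix-loop-helix (bHLH) and other homeobox families, none of them on chromosome 2, 9 or 11, where the 3 promoters lie. All but *Sox1*, whose symbol the annotation used here does not carry, were found, which left 53 of the 21238 autosomal protein-coding gene windows. A window was the gene body with 10 kb to each side in NCBIM37 (mm9), and the 53 windows covered 1.98 Mb in 4649 DpnII fragments on 15 chromosomes. *Dlx5* and *Dlx6* share a window in part. The rule itself uses no read counts, but the genes were proposed with earlier results of these data known.

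The study used NG Capture-C, in which crosslinked chromatin is cut with DpnII, ligated, and enriched with biotinylated probes for the fragments joined to a chosen piece of DNA, the viewpoint. Embryonic stem cells (ESC, day 0, strain 129/Sv//EV) were compared with definitive endoderm (DE, day 5, same strain), made from ESC through embryoid bodies grown without LIF and then in N2B27 medium with ActivinA and EGF. The control cells were erythrocytes (labelled PHS and, like DE, day 5) from spleens of C57BL/6 mice treated with phenylhydrazine. Cell type and strain therefore cannot be told apart wherever erythrocytes are one side of a comparison. Each cell type gave 3 libraries, which the study calls biological replicates without saying whether they were separate cultures or animals, so the tests measure the spread between these libraries. By the labels, the same 9 libraries were enriched once with promoter probes and once with probes for enhancers, 3 of them of *Eomes*. The promoters of the α-globin (*Hba*), β-globin (*Hbb*) and mitoferrin (*Slc25a37*) genes served here as the control viewpoints. The erythrocytes were a spleen suspension passed through a cell filter, and no sort is named for any of the 3 cell types.

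Many genes for lineage-specifying transcription factors are silent in pluripotent cells, where most of these carry Polycomb complexes on CpG-rich promoters. Polycomb repressive complex 2 deposits H3K27me3 and Polycomb repressive complex 1 compacts chromatin and can bring distant target genes together in foci called Polycomb bodies. *Eomes*, *Foxa2* and *Lhx1* are themselves silent in ESC and active in the endoderm. None of these marks was measured in the data analysed here.

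Promoter sequences of 39 of the 53 genes were found in RefSeq (GRCm38.p6, 250 bases before to 50 after the start), a later build than that of the interaction data. They held a median of 22 CpG dinucleotides in 300 bases, against 8 over the promoters of 27025 genes, and 36 of the 39 (92.3%) held at least 10, against 45.8% of all. The range ran from 4 in *Lhx8* and *Olig3* to 40 in *Nkx6-1*. CG reads the same on both strands, so each is counted once. The promoters of 6 genes to which the results return are shown 5′ to 3′ with every CG in capitals, to let the CpG-rich ones be set beside *Lhx9*, which had only 6. They are *Six3* (chr17:85620584-85620883, + strand, 14 CG), *Lhx9* (chr1:138842395-138842694, − strand), *Olig2* (chr16:91225300-91225599, + strand, 25 CG), *Pax2* (chr19:44756656-44756955, + strand, 30 CG), *Lhx4* (chr1:155741978-155742277, − strand, 19 CG) and *Gsc* (chr12:104473187-104473486, − strand, 25 CG).
Six3: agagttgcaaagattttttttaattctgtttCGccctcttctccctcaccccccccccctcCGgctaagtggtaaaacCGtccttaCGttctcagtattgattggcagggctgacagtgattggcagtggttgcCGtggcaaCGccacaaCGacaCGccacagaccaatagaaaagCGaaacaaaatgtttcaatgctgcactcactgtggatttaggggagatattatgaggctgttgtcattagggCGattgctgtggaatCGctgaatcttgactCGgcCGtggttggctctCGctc
Lhx9: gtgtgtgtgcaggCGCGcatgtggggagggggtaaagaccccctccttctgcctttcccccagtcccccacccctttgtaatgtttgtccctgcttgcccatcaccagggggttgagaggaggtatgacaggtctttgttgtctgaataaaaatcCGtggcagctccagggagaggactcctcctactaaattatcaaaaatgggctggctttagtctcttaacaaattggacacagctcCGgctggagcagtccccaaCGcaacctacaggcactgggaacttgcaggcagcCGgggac
Olig2: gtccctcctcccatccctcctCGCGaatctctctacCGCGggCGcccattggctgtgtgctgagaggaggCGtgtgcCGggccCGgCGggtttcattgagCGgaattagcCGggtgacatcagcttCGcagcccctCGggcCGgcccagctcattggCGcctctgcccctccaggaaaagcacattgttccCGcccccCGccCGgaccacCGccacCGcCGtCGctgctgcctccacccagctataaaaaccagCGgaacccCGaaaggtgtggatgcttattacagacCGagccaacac
Pax2: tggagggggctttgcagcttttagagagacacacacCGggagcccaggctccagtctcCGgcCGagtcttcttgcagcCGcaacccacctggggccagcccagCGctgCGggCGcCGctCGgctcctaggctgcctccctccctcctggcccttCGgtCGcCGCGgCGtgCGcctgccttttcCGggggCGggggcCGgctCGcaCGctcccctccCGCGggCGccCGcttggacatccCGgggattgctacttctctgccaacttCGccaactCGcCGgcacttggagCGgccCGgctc
Lhx4: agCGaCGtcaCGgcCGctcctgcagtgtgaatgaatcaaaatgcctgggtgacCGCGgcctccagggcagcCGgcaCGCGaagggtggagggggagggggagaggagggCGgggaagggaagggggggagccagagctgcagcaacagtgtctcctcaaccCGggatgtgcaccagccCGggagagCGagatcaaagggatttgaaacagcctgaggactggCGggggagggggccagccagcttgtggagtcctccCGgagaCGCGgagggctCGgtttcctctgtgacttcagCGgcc
Gsc: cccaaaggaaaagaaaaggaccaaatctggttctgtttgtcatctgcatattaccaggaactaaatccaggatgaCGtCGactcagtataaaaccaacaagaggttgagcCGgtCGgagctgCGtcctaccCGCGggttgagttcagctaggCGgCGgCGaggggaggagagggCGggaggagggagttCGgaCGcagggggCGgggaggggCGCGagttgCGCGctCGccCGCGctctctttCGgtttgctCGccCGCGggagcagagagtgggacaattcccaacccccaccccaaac

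A trans level is given below as the reads on the windows divided by the reads expected if they had received the mean number per kb over all autosomes other than the viewpoint's own. A level of 1 is therefore the genome-wide trans level of the same library and viewpoint. At the 3 developmental viewpoints together, the 53 genes had levels of 4.14, 4.59 and 4.04 in the ESC libraries, from 47, 82 and 54 reads. The DE libraries had 2.13, 2.13 and 1.78, from 83, 109 and 59 reads. The erythrocyte libraries had 1.40, 0.321 and 0.599, from 50, 1 and 8 reads. Every ESC library lay above every DE library, and every DE library above every erythrocyte library.

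The means were 4.25 ± 0.291 in ESC, 2.01 ± 0.202 in DE and 0.772 ± 0.558 in erythrocytes (SD, n = 3 each). In all, 183 reads were seen in ESC where 42.6 were expected and 251 in DE where 123 were expected. The level in ESC was 2.11 times that in DE and 5.51 times that in erythrocytes, and the second ratio ran from 2.05 (50 kb flanks) to 9.32 (gene bodies alone) over 16 settings. No p-value is given for a sum over chosen genes, and the separation is stated as the absence of overlap between libraries. The erythrocyte mean rests on few reads: the second library was expected to give only 3.11 reads, and the mean was 0.460 without the first library, which held 50 of the 59, and 0.997 without the second. Summed over libraries, the 59 reads stood against 52.3 expected, a level of 1.13. The second erythrocyte library also stood apart in its share of trans reads at these viewpoints, 22.4% against 55.4% and 56.4% in the others. That share was 32.0% to 40.1% in ESC and 39.2% to 41.7% in DE, and its part in the levels was not tested.

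At the control viewpoints the same genes had means of 1.07 ± 0.166 in ESC, 1.39 ± 0.391 in DE and 0.840 ± 0.239 in erythrocytes (SD, n = 3 each). ESC libraries had 1.24, 0.910 and 1.07, DE libraries 1.56, 1.68 and 0.948, and erythrocyte libraries 0.965, 0.564 and 0.989. The ranges of the 3 cell types overlapped. Within each library the developmental level over the control level was between 3.33 and 5.04 in ESC, between 1.27 and 1.88 in DE and between 0.569 and 1.45 in erythrocytes. In 2 of the 3 DE libraries the control level was itself above 1, with 95% counting intervals of 1.27 to 1.90 and 1.40 to 1.99.

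**Figure D1:**
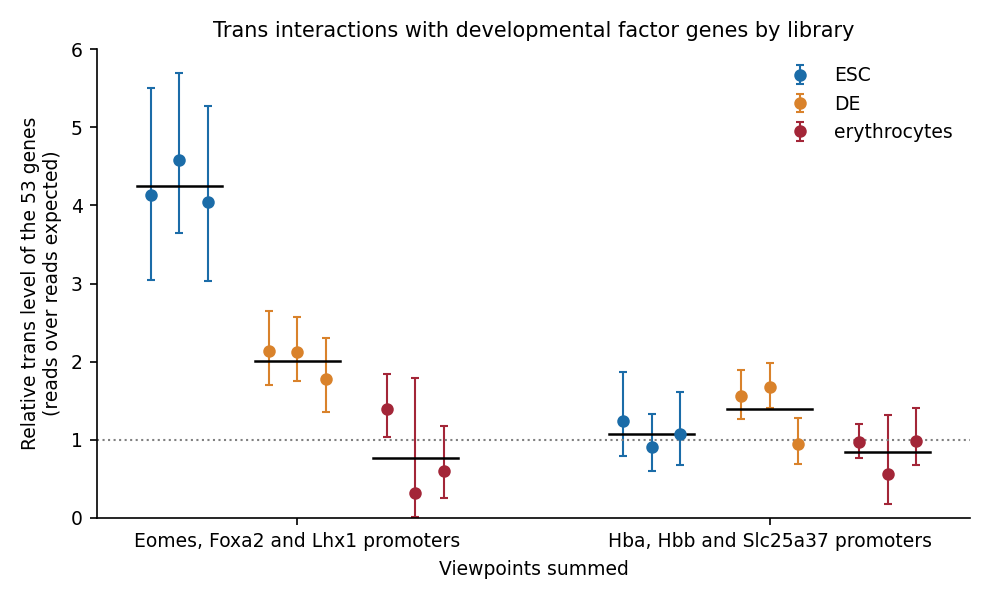
Relative trans level of the 53 genes (reads over reads expected, linear axis) in each library at the developmental viewpoints (left) and the control viewpoints (right), with exact Poisson 95% intervals as bars, the mean of 3 libraries as a black line and the genome-wide level of 1 as a dotted line. The 3 ESC libraries sit between 4.04 and 4.59 at the developmental viewpoints and between 0.910 and 1.24 at the control viewpoints.

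Trans levels rise with base composition in these libraries, and the 53 windows are rich in G and C. Of their length, 34.7% lay in the highest of 10 GC classes of 50 kb bins, where the ESC trans level was 1.66, against 0.631 in the lowest. With the expected reads taken from the GC class of each fragment, the level of the 53 genes was 3.12 in ESC and 1.50 in DE. A setting with 13 classes of CpG density in 5 kb bins was added after the data were seen. It gave 2.90 ± 0.132 in ESC, 1.49 ± 0.174 in DE and 0.731 ± 0.564 in erythrocytes. The lowest ESC library was then at 2.77 and the highest DE library at 1.60. At the control viewpoints the same setting gave 0.860 ± 0.117 in ESC, 1.19 ± 0.327 in DE and 0.724 ± 0.326 in erythrocytes. In DE the libraries of both viewpoint sets overlapped, with 1.29 to 1.60 at the developmental and 0.821 to 1.44 at the control viewpoints. The ratio of ESC to DE lay between 1.75 and 2.34 over 16 settings, the main one included.

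The viewpoints did not contribute equally. The *Lhx1* promoter, of a LIM-homeobox gene of the anterior primitive streak, had levels of 5.47, 6.95 and 4.58 in the ESC libraries. The *Eomes* promoter, of a T-box gene at the head of the same programme, had 3.71, 4.43 and 5.27. The *Foxa2* promoter, of a forkhead gene of the endoderm, had 3.11, 1.77 and 1.65. Every *Foxa2* value lay below every *Eomes* and *Lhx1* value, while those of *Eomes* and *Lhx1* overlapped. The 3 viewpoints share libraries, so their values are not independent.

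In DE the levels were 2.71, 2.58 and 1.57 for *Eomes*, 1.92, 1.93 and 2.84 for *Lhx1* and 1.65, 1.79 and 0.742 for *Foxa2*. ESC and DE libraries did not overlap for *Eomes* and *Lhx1* and overlapped for *Foxa2*. In erythrocytes *Eomes* had 0.931, 0.759 and 0.783, and *Lhx1* had 2.16, 0 and 0.238. The value of 2.16 came from 27 reads and was the only erythrocyte value at these 3 promoters whose 95% counting interval (1.42 to 3.14) lay above 1. Of the control viewpoints, *Slc25a37* in DE had the highest levels, 1.59 to 1.95, and the 3 *Hbb* means lay between 0.920 and 1.02.

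The enhancer capture of the same libraries gave a second reading from other probes. The 3 *Eomes* elements PSE_a, PSE_b and VPE together had 122 reads on the 53 genes in ESC, where 35.9 were expected. The VPE had the highest mean of the 3 in ESC, 4.82 ± 0.824, against 2.64 ± 0.553 for PSE_a and 2.18 ± 0.978 for PSE_b. The joint level was 3.39 ± 0.0479 in ESC, 1.84 ± 0.117 in DE and 1.37 ± 0.611 in erythrocytes (SD, n = 3 each). ESC libraries lay between 3.36 and 3.45 and DE libraries between 1.70 and 1.91, whereas erythrocyte libraries ran from 0.838 to 2.04 and overlapped DE. The enhancer columns of the control genes gave 1.13, 1.03 and 0.962 in the 3 cell types.

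**Figure D2:**
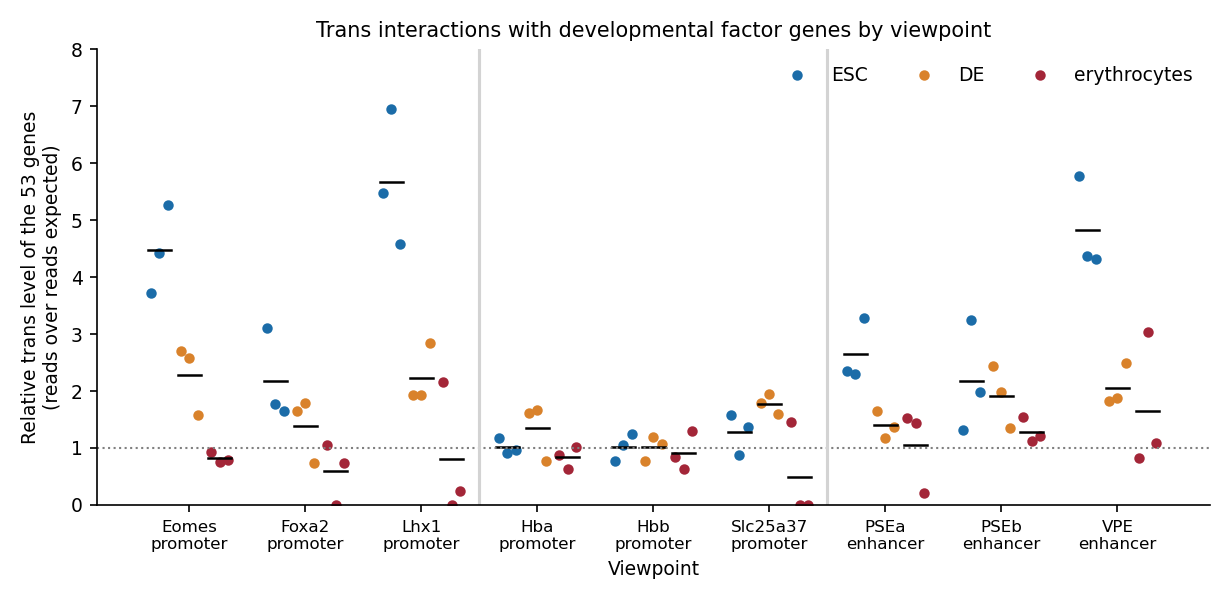
Relative trans level of the 53 genes (reads over reads expected, linear axis) at each of 6 promoter and 3 enhancer viewpoints, with a point per library and the mean of 3 as a black line. In ESC the *Lhx1* and *Eomes* promoters and the VPE stand highest, *Foxa2* is lower, and the control promoters lie around the dotted line at 1.

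The excess was highest near the start of the genes. Their median length was 5.33 kb, so start and gene body are not told apart, and the profile was not adjusted for CpG density. In ESC, fragments within 5 kb of a start had a level of 6.15 ± 0.258, those at 5 to 10 kb 5.09 ± 0.743, those at 10 to 25 kb 2.71 ± 0.542 and those at 25 to 50 kb 1.59 ± 0.0678. From 100 to 250 kb the level was 1.26 ± 0.135, and from 500 to 1000 kb 1.06 ± 0.0722. In DE the first 5 kb had 2.93 ± 0.0952 and the next 5 kb 1.72 ± 0.233. Libraries of ESC and DE did not overlap in any distance class up to 50 kb. They overlapped between 50 and 100 kb.

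Gene starts in general had a smaller excess. Over all protein-coding genes the first 5 kb had 1.53 ± 0.0416 in ESC and 1.45 ± 0.0121 in DE at the same viewpoints, and 1.31 ± 0.293 in erythrocytes, close to the 1.35 ± 0.353 of the 53 genes there. At the control viewpoints in ESC the first 5 kb of the 53 genes had 1.29 ± 0.227. The 183 ESC reads lay on 164 fragments, with at most 3 on 1 fragment, and none of the 11 fragments with 10 or more reads in a column lay in the windows.

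**Figure D3:**
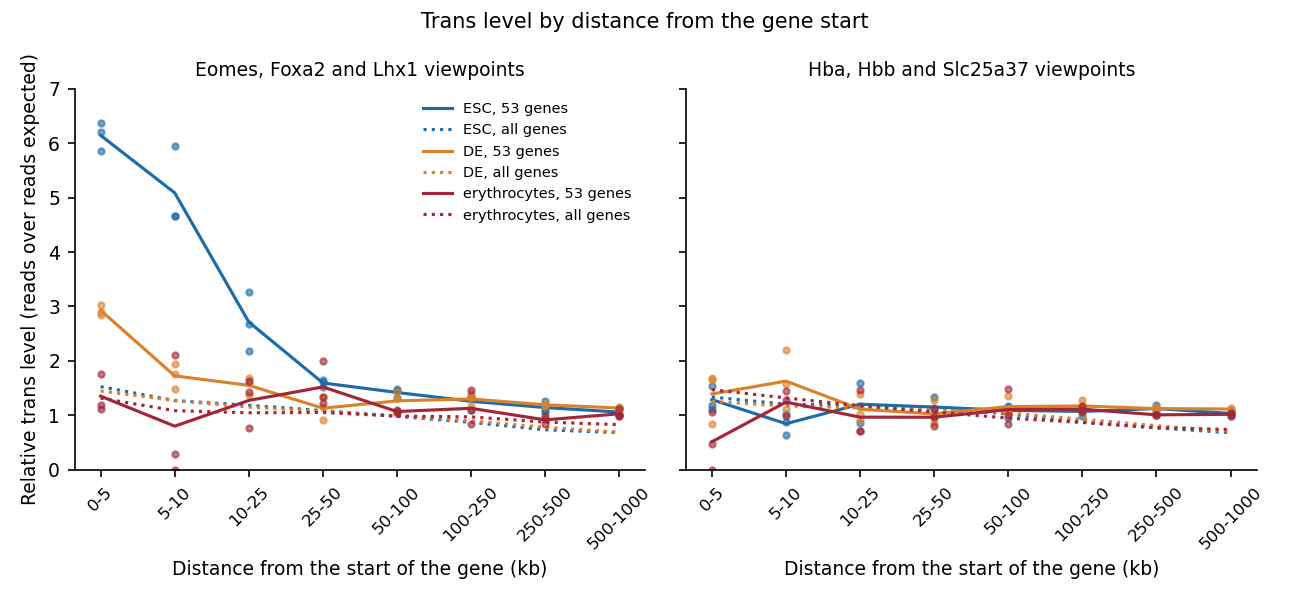
Relative trans level (reads over reads expected, linear axis) by distance from the gene start for the 53 genes (solid lines, means of 3 libraries, with a point per library) and for all protein-coding genes (dotted lines), at developmental (left) and control (right) viewpoints. The ESC line starts at 6.15 and reaches 1.59 at 25 to 50 kb, while the means at the control viewpoints lie between 0.513 and 1.63 throughout.

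Gene by gene the reads were few, with a median of 0.561 expected per window over the 3 ESC libraries, against 0.791 over all windows, which were larger. At the developmental viewpoints 44 of the 53 genes had reads in ESC (83.0%, against 61.4% of all windows), 50 in DE (94.3%, against 86.8%) and 28 in erythrocytes (52.8%, against 61.9%). The median level was 3.56 in ESC, 1.74 in DE and 0.906 in erythrocytes, beside 0.922, 1.12 and 0.816 over 16509 gene windows off chromosomes 2, 9 and 11. A level whose 95% counting interval lay above 1 was seen for 20 genes in ESC (37.7%), where 6.28% of all windows had one. In DE it was seen for 13 genes (24.5%, against 11.6%) and in erythrocytes for 4 (7.55%, against 4.68%). A level above 2 was seen for 35 of the genes in ESC (66.0%, against 23.9%), 24 in DE (45.3%, against 21.0%) and 10 in erythrocytes (18.9%, against 16.4%). In the smallest windows 1 read was enough for this in ESC, as for *Gsc*, so these shares also depend on window size. At the control viewpoints a level above 2 was seen for 9 in ESC (17.0%, against 23.2%), 13 in DE (24.5%, against 16.0%) and 5 in erythrocytes (9.43%, against 19.4%), and an interval above 1 for 1 in ESC (1.89%, against 9.24%), 10 in DE (18.9%, against 12.8%) and 3 in erythrocytes (5.66%, against 10.7%).

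Reads were spread over viewpoints and libraries. In ESC 9 genes were met by all 3 promoters, 16 by 2 of them, 19 by 1 and 9 by none, and 12 genes had reads in every library. These counts were not made over all windows, so they describe the spread of the reads only. *Gata4*, the gene with most reads, held 9.24% of them, and without it the level in ESC was 4.08 ± 0.0974. The mean over libraries was higher in ESC than in DE for 34 genes (64.2%), where 39.9% of all windows were higher in ESC. It was higher in ESC than in erythrocytes for 39 (73.6%, against 46.4%) and in DE than in erythrocytes for 44 (83.0%, against 62.0%).

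For 6 genes every ESC library lay above every DE library (11.3%, against 1.66% of all windows), and for 1, *Emx2*, every DE library lay above ESC (1.89%, against 6.97%). The 6 were *Hand2*, *Lhx5*, *Lhx9*, *Olig2*, *Pax2* and *Six3*. For 9 genes every ESC library lay above every erythrocyte library (17.0%, against 2.62%), and for none was it the reverse (against 0.551% of all windows). They were *Foxc2*, *Gata4*, *Hand2*, *Lhx9*, *Olig2*, *Pax2*, *Six3*, *Tbx15* and *Tbx5*. For 11 genes every DE library lay above every erythrocyte library (20.8%, against 9.76%), and for 1, *Neurog2*, it was the reverse (1.89%, against 0.660%). *Emx2* had 1 read in each DE library and none in ESC, where 0.595 were expected.

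*Six3*, a homeobox gene of the forebrain and eye (NCBIM37 chr17:86012948-86031153), had 5, 3 and 5 reads in the ESC libraries where 0.828 were expected in all. DE gave it 1, 2 and 1 reads of 2.40 expected, and erythrocytes gave it none of 1.02. Its level was 15.7 in ESC (95% interval 8.36 to 26.8) and 1.67 in DE, and the control viewpoints gave it no read in ESC, where its reads came from *Eomes* (6) and *Lhx1* (7). *Lhx9*, a LIM-homeobox gene of the gonad and limb (chr1:140721763-140745153), had 4, 5 and 3 reads in ESC, 3, 6 and 0 in DE and none in erythrocytes, with a level of 12.6 in ESC and 3.26 in DE. Both were named after their values had been seen, as were *Olig2*, *Hand2* and *Lhx5*.

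*Olig2*, a bHLH gene of motor neuron and oligodendrocyte progenitors (chr16:91225795-91228922), had 2, 3 and 4 reads in ESC, none in DE and 1, 0 and 0 in erythrocytes. Its level of 17.2 in ESC (7.88 to 32.7) was the highest of the 53, and the expected number was only 0.523 reads. The 0 reads in DE allowed a level of up to 2.44. *Hand2*, a bHLH gene of the heart and limb, had 1, 3 and 2 reads in ESC and 0, 3 and 1 in DE, and *Lhx5*, of the forebrain, had 1, 1 and 3 and then 2, 2 and 0.

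*Gata4*, a zinc-finger factor of the endoderm and heart (chr14:63817759-63890529), had 4, 12 and 1 reads in the ESC libraries where 2.01 were expected in all. In DE it had 5, 5 and 3 of 5.82, and in erythrocytes none of 2.47. Its level was 8.45 in ESC (4.92 to 13.5) and 2.23 in DE (1.19 to 3.82), and 12 of its 17 ESC reads came from 1 library. Of the ESC reads 11 were from the *Lhx1* viewpoint, 5 from *Eomes* and 1 from *Foxa2*. *Gata6*, its relative of the primitive endoderm, had 0, 1 and 2 reads in ESC, 0, 2 and 0 in DE and 2, 0 and 1 in erythrocytes, and its counting intervals included 1 in all 3.

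*Pax2*, a paired-box gene of the kidney (chr19:44830539-44912758), had 4, 6 and 2 reads in ESC of 2.22 expected, 2, 6 and 0 in DE of 6.44 and 4, 0 and 0 in erythrocytes of 2.73. Its level was 5.39 in ESC, 1.24 in DE and 1.46 in erythrocytes. *Lhx4*, a LIM-homeobox gene of the pituitary (chr1:157548827-157589157), had 0, 5 and 3 reads in ESC and 10, 8 and 2 in DE, and its levels of 6.00 (2.59 to 11.8) and 5.19 (3.17 to 8.01) overlapped.

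*Gsc*, a homeobox gene of the organiser and anterior primitive streak (chr12:105709419-105711537), had the opposite order. It had 0, 0 and 1 reads in ESC, 1, 3 and 5 in DE of 1.41 expected, and none in erythrocytes, with levels of 2.05 (0.0518 to 11.4) and 6.37 (2.91 to 12.1) in ESC and DE. *Otx2*, a homeobox gene of the anterior epiblast and head (chr14:49277354-49287319), had 0, 1 and 0 reads in ESC, 2, 3 and 0 in DE and 3, 0 and 0 in erythrocytes, and each of its intervals included 1. The difference between ESC and DE was not past the threshold for either gene where it was tested (*Gsc*, log2 difference of 0.74 higher in DE, SE 0.59, limma adjusted p = 0.819). *Otx2* was too sparse to be tested.

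The 4 genes with roles in the endoderm or anterior primitive streak, *Gata4*, *Gata6*, *Gsc* and *Otx2*, had a joint level of 4.72 ± 2.62 in ESC and 2.31 ± 0.249 in DE. The other 49 had 4.20 ± 0.0352 and 1.98 ± 0.234. The order in the group of 4 rested on *Gata4*, which held 17 of its 22 ESC reads. In a setting added after the data were seen, *Gata6*, *Gsc* and *Otx2* alone had 5 reads of 2.30 expected in ESC, a level of 2.17 (95% interval 0.706 to 5.07), and 16 of 6.66 in DE, a level of 2.40 (1.37 to 3.90).

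Among the larger windows, *Tbx15* (skeletal and skin patterning) had 2, 6 and 1 reads in ESC, 5, 6 and 1 in DE and none in erythrocytes, a level of 3.10 in ESC (1.42 to 5.89). *Tbx5*, of the heart and forelimb, had 1, 2 and 1 in ESC and 1, 5 and 0 in DE. *Pax3* and *Pax7*, paired-box genes of neural crest and muscle, had levels of 2.39 (0.875 to 5.19) and 1.57 (0.429 to 4.03) in ESC and of 1.65 and 2.18 in DE. Their ESC intervals included 1, and *Pax3* had 3, 6 and 0 reads at the control viewpoints in ESC. No member with at least 1 expected read in ESC was below a level of 1.

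At the other end, 9 of the 53 genes had no read in ESC: *Emx2*, *En1*, *Foxc1*, *Gsx2*, *Isl1*, *Msx2*, *Neurog3*, *Nkx3-2* and *Olig3*. Each was expected to have less than 1 read, so the depth does not separate them from the others. *Neurog1* and *Neurog2*, bHLH genes of neurogenesis, had the highest levels in erythrocytes, 9.49 (3.48 to 20.7) and 7.92 (2.57 to 18.5). Their reads there were 5, 0 and 1 and 3, 1 and 1, and their ESC levels were 7.77 and 5.83. *En2* (5.30, 1.44 to 13.6) and *Neurog3* (5.10, 1.05 to 14.9) also had an erythrocyte interval above 1. These 4 of the 53 genes are 7.55%, near the 4.68% of all windows. *Cdx2*, of the trophectoderm and posterior axis, had 0, 3 and 0 reads in ESC and 1, 7 and 2 in DE, a level of 5.98 in DE. These genes were named after their values had been seen.

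**Figure D4:**
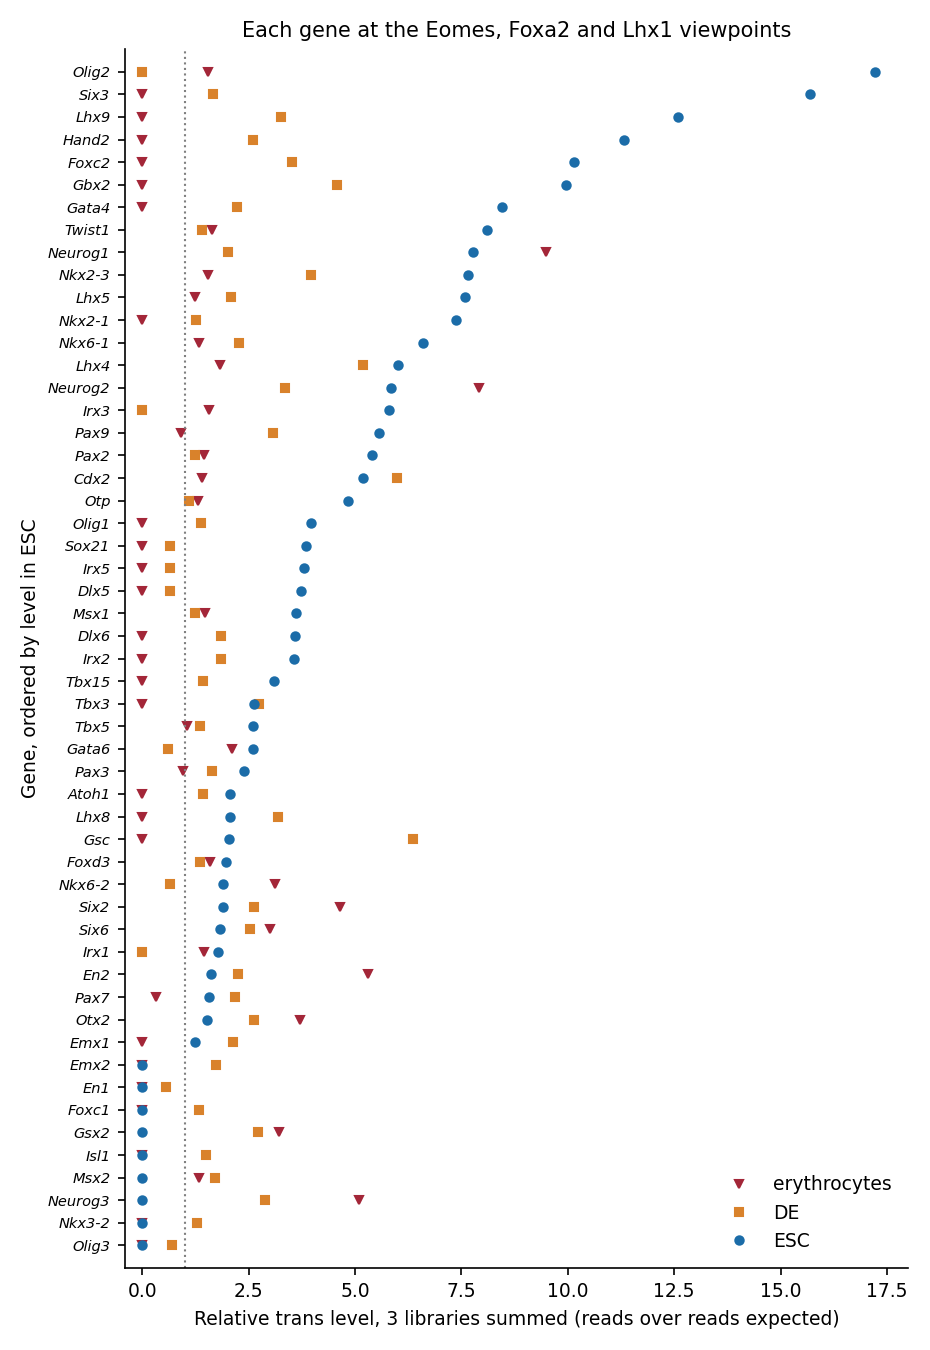
Relative trans level (reads over reads expected, linear axis, 3 libraries summed) of each of the 53 genes at the developmental viewpoints, ordered from the highest level in ESC (*Olig2*, 17.2) to the 9 genes at 0. Circles (ESC) lie to the right of squares (DE) for 34 genes, and triangles (erythrocytes) lie at 0 for 25.

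By family, the 3 sine oculis genes had the highest mean in ESC, 8.18 ± 1.81, against 2.33 ± 1.04 in DE. The 9 bHLH genes had 6.37 ± 0.623 and 1.83 ± 1.21, and 2.61 ± 1.06 in erythrocytes, the only family with a mean above 2 there. Of their 16 erythrocyte reads *Neurog1* held 6, *Neurog2* 5 and *Neurog3* 3. Summed over libraries, the sine oculis genes were also above 2 in erythrocytes, at 2.14 from 5 reads. The 4 Iroquois genes had 3.72 ± 0.601 in ESC and 0.662 ± 0.318 in DE. For the sine oculis, bHLH, Gata, Iroquois and Pax families no ESC library overlapped a DE library, and for the LIM, Nkx, Fox, T-box and other homeobox families libraries overlapped.

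The LIM genes had 5.73 ± 1.48 in ESC and 3.15 ± 2.00 in DE, the Nkx genes 5.34 ± 3.98 and 1.78 ± 0.835, and the Pax genes 3.26 ± 0.804 and 1.85 ± 0.285. The 14 other homeobox genes had 2.39 ± 1.67 in ESC and 2.57 ± 0.299 in DE, so for them the mean was not higher in ESC. Families of few genes rest on few reads, 6 in ESC for the 3 Fox genes.

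Other lists of genes were read in the same way, each gene only at viewpoints on other chromosomes. A second list held 73 developmental transcription factor genes, 67 of them in trans to all 3 developmental viewpoints. It had 2.95 ± 0.170 in ESC, 1.77 ± 0.264 in DE and 1.13 ± 0.480 in erythrocytes, and 1.21 ± 0.301 at the control viewpoints in ESC. Its ESC libraries lay between 2.82 and 3.14, below those of the 53 genes. Endoderm genes had 2.18 ± 0.940 in ESC and 1.63 ± 0.301 in DE. Pluripotency genes, which are active in ESC, had 1.28 ± 0.481 and 1.60 ± 0.332, and housekeeping genes 1.12 ± 0.772 and 1.59 ± 0.163. Neither of these last lists had a higher mean in ESC than in DE, and in both the ESC and DE libraries overlapped. The housekeeping level in ESC rested on 22 reads, with libraries from 0.634 to 2.01.

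Olfactory receptor genes, a large silent family in clusters poor in CpG, had 0.799 ± 0.112 in ESC and 0.808 ± 0.0267 in DE. The windows of all autosomal protein-coding genes, each read only at viewpoints on other chromosomes, had 1.15 ± 0.00914 and 1.15 ± 0.00738. With the protein-coding windows as the expected level, the 53 genes had 3.70 in ESC and 1.76 in DE.

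**Figure D5:**
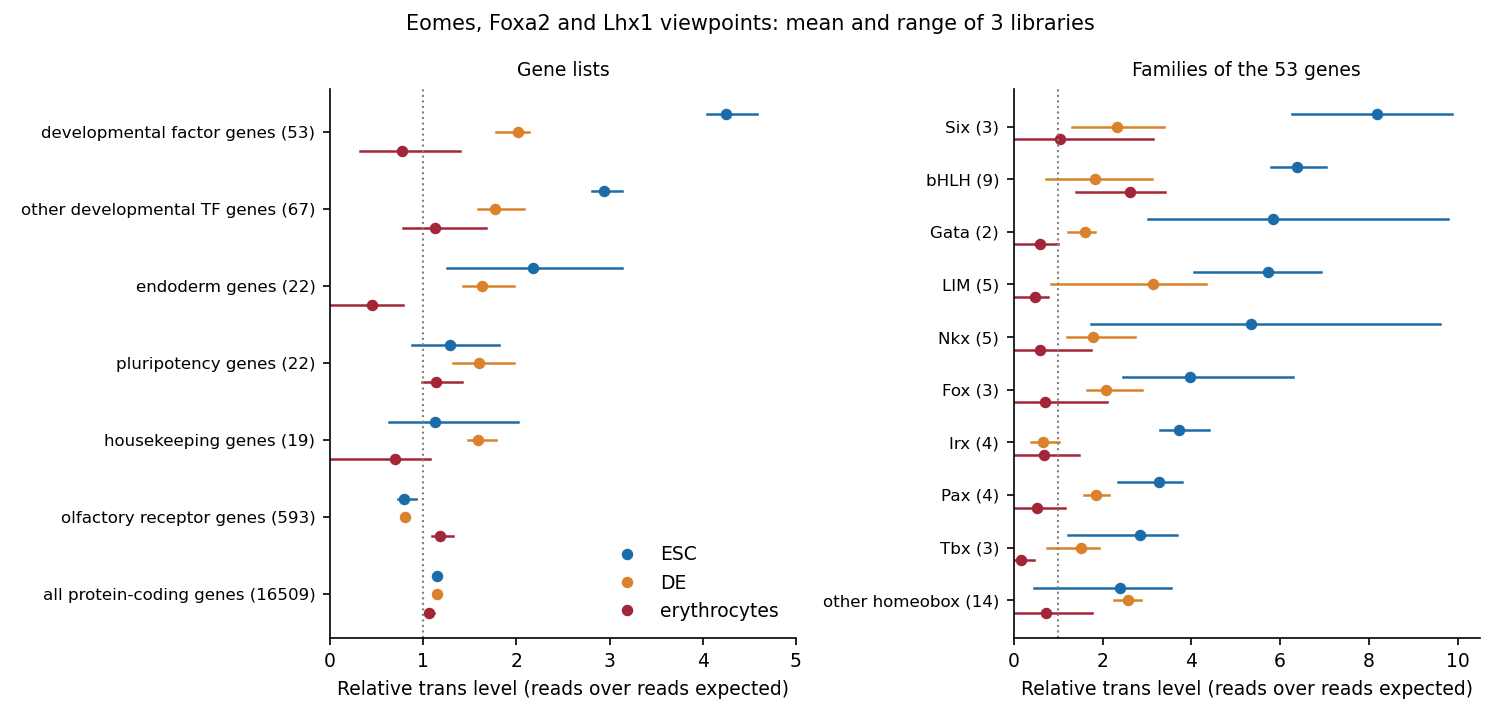
Mean relative trans level (points, reads over reads expected, linear axis) and range of 3 libraries (lines) at the developmental viewpoints for gene lists (left) and for families of the 53 genes (right). Numbers in parentheses are the genes in trans to all 3 of these viewpoints. List genes on a viewpoint's own chromosome counted only at the other viewpoints. The single Sox gene is left out and the sine oculis genes carry their symbol prefix. Both lists of developmental factor genes lie highest in ESC (4.25 and 2.95), and pluripotency, housekeeping and olfactory receptor genes lie between 0.799 and 1.28 there.

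Differences at single genes were tested with limma across all gene windows with at least 10 reads in the libraries compared. Between DE and ESC 17 of the 53 genes could be tested among 3194 windows, and no window passed an adjusted p of 0.05 (0%), nor did any in edgeR or DESeq2. At an unadjusted p under 0.05 there were 218 windows (6.83%), with 4 of the 53 genes among them: *Six3* (log2 difference −2.04, SE 0.57, adjusted p = 0.657), *Pax2* (−1.65), *Lhx9* (−1.62) and *Hand2* (−1.18), all lower in DE. Since a gene could reach 10 reads through ESC alone, these 4 are no measure of how many of the 53 differ.

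Between ESC and erythrocytes 7 of the 53 were tested among 1228 windows and between DE and erythrocytes 8 among 3190, again with no window called (0%). There were 76 windows (6.19%) and 226 windows (7.08%) at an unadjusted p under 0.05. They held 5 and 4 of the 53 genes, *Six3*, *Gata4*, *Lhx9*, *Olig2* and *Pax2* in the first comparison and *Gata4*, *Pax7*, *Tbx15* and *Lhx4* in the second, all with the lower value in erythrocytes. Most of these genes reached 10 reads only through ESC or DE, so that direction was set by the minimum and is no support. edgeR called 0 windows in the first and 2 in the second, none of them one of the 53 genes, and DESeq2 called 0 in both.

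Developmental and control viewpoints were compared within the ESC libraries, with the library as a block and without genes on chromosomes 2, 7, 9, 11 and 14. Of 1636 windows 2 were called (0.122%), neither of them one of the 8 of the 53 genes tested. They were *Sstr3* and *C1qtnf6*, neighbours on chromosome 15 with 114 reads each, and both calls went when fragments with 10 or more reads were left out. *Six3* (log2 difference 2.67, SE 0.65, adjusted p = 0.357) and *Lhx9* (2.35, SE 0.64, adjusted p = 0.523) were the only genes of the 53 with an unadjusted p under 0.05, among 95 windows (5.81%). Both reached 10 reads through the developmental viewpoints alone (13 against 0 and 12 against 1 reads), which fixed the direction. With a minimum of 1 read in place of 10, 5 windows of up to 13496 were called, *Six3* among them (limma adjusted p = 0.00693). Its log2 difference was still 2.67, and its SE was then 0.56. With the minimum of 10 reads, no single gene of the 53 passed the threshold in any of the 4 comparisons at this depth.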

How the data were processed

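NG Capture-C signal was available for 3 cell types with 3 libraries each. Reads were assigned by the authors to DpnII fragments of mm9 with a Capture-C pipeline, with Trim Galore and Bowtie named in the submitters' processing notes. The deposited signal of a fragment is given for each replicate and viewpoint separately, each column having been scaled to 100000 interactions. How duplicate reads were handled is not given in the sources used here. All fragment ends matched a DpnII digest of NCBIM37, and whole reads (within 0.05 of a read) were recovered for 100% of the values in every column. Columns held between 3744 and 192111 reads, of which 970 to 63756 were in trans, 3603 to 7459 in ESC at the developmental viewpoints. Intervals are exact Poisson (95%) and cover counting error only, since reads without molecular identifiers can include PCR copies.

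Levels were summed over the viewpoints of a set in each library. The per-gene test was limma on log2 of reads per 100000 trans interactions plus 5, with at least 10 reads and Benjamini-Hochberg adjustment at 0.05. It was checked on simulated data in which the changed windows were made deeper than observed. That check does not cover windows as sparse as most of the members. The numbers of replicates did not pair the libraries: correlations of same-numbered deviations were between −0.0162 and 0.0550. No 2 libraries agreed within sampling noise. The rule for named genes took the 10 highest and up to 5 lowest members with at least 1 expected read in ESC (8 qualified), the 4 endoderm or streak factors, any member past the threshold and up to 3 other genes per comparison. Others are said to have been chosen after their values were seen. The members and lists were chosen with earlier results of these data known. R 4.3.3, limma 3.58.1, edgeR 4.0.16, DESeq2 1.42.0, Python 3.11.15, numpy 2.4.6, pandas 2.3.3, scipy 1.17.1 and matplotlib 3.10.9 were used.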

Additional observations from a re-analysis of the deposited data

How the results depend on the processing

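The order of the cell types at the developmental viewpoints, ESC above DE above erythrocytes, was kept in the means under all 15 alternatives for the summed level. In ESC the level moved by more than its SD to 4.64 with gene bodies alone, 2.52 with 50 kb to each side, 5.47 with 10 kb around the start, 3.12 with GC classes, 2.90 with CpG classes (added after the data were seen), 3.70 with protein-coding windows as the expected level and 3.39 in the enhancer capture. In DE these gave 2.29, 1.44, 2.34, 1.50, 1.49 and 1.76, the enhancer capture being within 1 SD. In erythrocytes only the enhancer capture moved it, to 1.37. The enhancer capture reads 3 *Eomes* elements in place of the 3 promoters, so it changes the loci as well as the probes. The *Eomes* promoter alone had a mean of 4.47 in ESC. At the control viewpoints in ESC the level moved to 1.38 with gene bodies, 0.815 with GC classes and 0.860 with CpG classes. With single libraries left out, the developmental level was 4.09 to 4.36 in ESC, 1.95 to 2.13 in DE and 0.460 to 0.997 in erythrocytes, and the control level 0.990 to 1.16, 1.25 to 1.62 and 0.765 to 0.977.

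With the replicate number as a block, 0 windows were called between DE and ESC, ESC and erythrocytes, and DE and erythrocytes, as without it, and without the library block 2 were called between viewpoints. Between DE and erythrocytes edgeR called 2 and limma with a trended prior 3, none among the 53 genes. Between viewpoints a pseudocount of 2 gave 0, of 20 gave 4 and a minimum of 1 read gave 5 (*Six3* among them). There edgeR gave 4, a trended prior 4, 50 kb flanks 5 and leaving out fragments with 10 or more reads 0. Leaving out libraries gave 0 to 2 calls between viewpoints (0 without the third ESC library) and 0 in the other comparisons. The causes were not tested. Depth limits the single genes: the median expected in ESC was 0.561 reads.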

Other observations

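Housekeeping genes in trans behaved differently at the control viewpoints of erythrocytes. Their level there was 2.34, 3.99 and 2.95 in the 3 libraries, from 80, 15 and 39 reads, against 1.67 ± 0.830 in ESC and 1.30 ± 0.346 in DE. The 53 developmental factor genes had 0.840 ± 0.239 at the same viewpoints and libraries. The highest ESC value of the housekeeping genes, 2.59, lay within the erythrocyte range, and the difference was not tested.

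Whole chromosomes also differed in their trans level at the developmental viewpoints. Chromosome 1 had 1.23 ± 0.0225 in ESC, 1.15 ± 0.0108 in DE and 0.961 ± 0.0610 in erythrocytes, with no overlap between libraries of ESC and DE. With each gene's own chromosome as the expected level, the 53 genes had 4.24 in ESC, within 1 SD of the main value.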
